A study of Mus musculus with 6 samples.

Results

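The genes described here are the ion channel and water channel families of the mouse colon, in controls and after a long exposure to PFOA (perfluorooctanoic acid). PFOA is a persistent fluorinated surfactant. Members were taken by symbol: protein-coding rows of the deposited count table whose gene name begins with the prefix of a channel family (Kcn, Scn, Cacn, Clcn, Clca, Clic, Ano, Asic, P2rx, Gabr, Gria, Grik, Grin, Chrn, Htr3, Ryr, Cng, Hcn, Piezo, Aqp, or Trp with a, c, m or v). Of 33 such rows, 5 that carry the annotation "neuronal cell body" (Trpv1, Gria2, Kcnk2, Kcnj2 and Kcnab1) and Scnn1b were left out. This gave 27 of the 2033 listed rows, or 1.33%. The study compared 3 libraries of control colon with 3 libraries of colon after PFOA. The labels speak of 6 frozen mice in each group without tying a mouse to a library, and no dose, duration, strain, sex, age or part of the colon is given. The p-values below therefore measure the spread between libraries, which may be technical, and a difference in the sampled part of the colon cannot be told apart from an effect of PFOA.

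Ion channels are membrane pores that let sodium, potassium, calcium or chloride pass down their gradients, and aquaporins do the same for water. In the colon, surface cells take up sodium through the epithelial sodium channel, crypt cells secrete chloride with the help of potassium channels in their basolateral membrane, and water follows the salt. Other channels belong to the muscle coat, its pacemaker cells and the enteric nerves, where they set excitability and carry fast transmission.

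The table did not hold all genes. No row had a log2 ratio of mean counts between -1.08 and 0.92, so the rows appear to be a selection made on that difference. Passing a test is then no evidence of an effect, counts of calls restate the direction of rows, and nothing is known here of channels that have no row. The listed counts of a library ran from 1771120 to 2269892, which are no sequencing depths, and CPM below means counts per 1e6 listed counts of a library. Replicates of a group correlated at 0.951 to 0.984 (log2 CPM, across rows), with PFOA replicate 1 the least like its group. Absorptive colonocyte markers had rows for 5 of 12 genes (2 rows higher and 3 lower in PFOA), and small intestinal enterocyte markers for 4 of 8 (all 4 higher, with summed CPM of 2204 to 2578 in control and 6652 to 9013 in PFOA). Mep1a, 2.21-fold higher, made up most of the control sum. Fabp2, Alpi and Sis were 14.4-fold, 19-fold and 43-fold higher. Adipocyte markers had rows for 4 of 6 genes, all higher by mean count, with sums of 9.7 to 39.1 in control and 68.8 to 491.2 in PFOA. PFOA replicate 2 was low, with 0 counts of Plin1 and Adipoq and 3 of Cfd. Its sum came nearly all from Cidec (144 counts). The markers of squamous epithelium had 2 of 12 (1 higher, 1 lower), of skeletal muscle 1 of 14 (Myh2, lower), of tuft cells 1 of 10 (Sucnr1, higher) and of leukocytes 1 of 10 (Mcpt1, higher). No row was present for 7 endothelial or 7 fibroblast markers.

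Promoter sequence was taken for members that the results turn on. RefSeq windows (GRCm38.p6, the assembly also called mm10) reach from 250 bases before to 50 bases after an annotated start, and 24 windows were found for 19 of the 27 members. Both strands were searched for 4 motifs. The half-site bound by many nuclear receptors was searched as AGGTCA. The half-site bound by receptors for steroid hormones was searched as AGAACA. A core that posterior Hox and Cdx transcription factors share was searched as CAATAAA. The site of the GATA transcription factors was searched as AGATAA. None of these motifs overlaps another in the windows printed. Shown are 4 genes that were lower in PFOA. Scnn1g is an epithelial sodium channel subunit, Trpv3 and Trpv6 are the TRPV family members, among those described here, with the largest ratios, and Kcnf1 had the single member window with the Hox and Cdx core. Each reads 5′ to 3′ along the gene, with matches in capitals.
Scnn1g (chr7:121734229-121734528, plus strand): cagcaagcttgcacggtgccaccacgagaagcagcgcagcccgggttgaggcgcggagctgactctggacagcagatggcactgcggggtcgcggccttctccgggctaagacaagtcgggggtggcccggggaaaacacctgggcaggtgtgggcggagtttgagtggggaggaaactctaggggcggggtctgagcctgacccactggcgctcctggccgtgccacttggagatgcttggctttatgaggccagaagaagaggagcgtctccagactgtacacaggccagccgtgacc
Trpv3 (chr11:73267270-73267569, plus strand): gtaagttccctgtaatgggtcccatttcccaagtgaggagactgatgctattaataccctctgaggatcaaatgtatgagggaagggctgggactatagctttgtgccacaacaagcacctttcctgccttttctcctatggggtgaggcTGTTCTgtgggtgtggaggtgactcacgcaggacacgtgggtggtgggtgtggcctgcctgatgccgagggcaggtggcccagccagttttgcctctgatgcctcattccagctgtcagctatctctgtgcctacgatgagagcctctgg
Trpv6 (chr6:41636356-41636655, minus strand): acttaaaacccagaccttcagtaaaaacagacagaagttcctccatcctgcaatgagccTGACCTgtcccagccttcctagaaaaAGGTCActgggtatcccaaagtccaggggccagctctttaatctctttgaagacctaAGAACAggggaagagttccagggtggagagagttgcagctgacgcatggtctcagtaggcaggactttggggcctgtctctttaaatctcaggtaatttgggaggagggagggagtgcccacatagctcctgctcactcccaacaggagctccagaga
Kcnf1 (chr12:17176839-17177138, minus strand): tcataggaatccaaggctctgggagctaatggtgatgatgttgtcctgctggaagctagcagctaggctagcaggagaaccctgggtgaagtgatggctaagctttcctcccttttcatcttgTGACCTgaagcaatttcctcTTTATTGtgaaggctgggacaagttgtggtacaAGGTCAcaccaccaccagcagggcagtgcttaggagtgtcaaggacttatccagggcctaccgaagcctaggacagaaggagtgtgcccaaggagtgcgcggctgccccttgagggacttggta

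The Scnn1g window held none of the 4 motifs. Trpv3 had 1 steroid receptor half-site, on the opposite strand, with its first printed base at -100 from the RefSeq start of the window. The Trpv3 row begins before that start, at 73267388, and the match lies inside the row. Trpv6 had 2 nuclear receptor half-sites (-191 on the opposite strand and -165) and 1 steroid receptor half-site (-108). In the Kcnf1 window, nuclear receptor half-sites lay at -127 (opposite strand) and -74, and the Hox and Cdx core at -107 (opposite strand). The nuclear receptor half-site was present in 16.7% of the 24 member windows and in 16.3% of 32851 RefSeq windows outside chromosome 18. The shares were 20.8% and 19.0% for the steroid receptor half-site, 4.2% and 4.6% for the Hox and Cdx core, and 0 of 24 and 11.2% for the GATA site. Such matches are letters in a window and show no binding.

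By mean raw count, 17 channel rows were lower and 10 higher in PFOA. Counts were scaled by TMM factors (trimmed mean of M-values) on each library's total over the rows tested. That scaling presumes mostly unchanged rows, which a table selected for a difference may not hold. The groups were compared with edgeR's quasi-likelihood test, which could take 24 of the 27 rows. All 24 passed at an adjusted p of 0.05, with 15 lower and 9 higher, as did every one of the 1608 rows tested, of which 50% were lower and 50% higher. The other 3 rows, among them Kcnmb2 and Trpv6, had too few counts. In 26 of 27 rows the scaled counts of the groups did not overlap, beside 97.1% of all listed rows, a share near the background. The median absolute log2 fold change was 2.00 for the tested channel rows and 1.76 for all rows tested. It passed 2 in 8 of the lower and 4 of the higher channel rows. The plot of scaled counts by library shows that the lower rows included the most abundant ones.

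**Figure D1:**
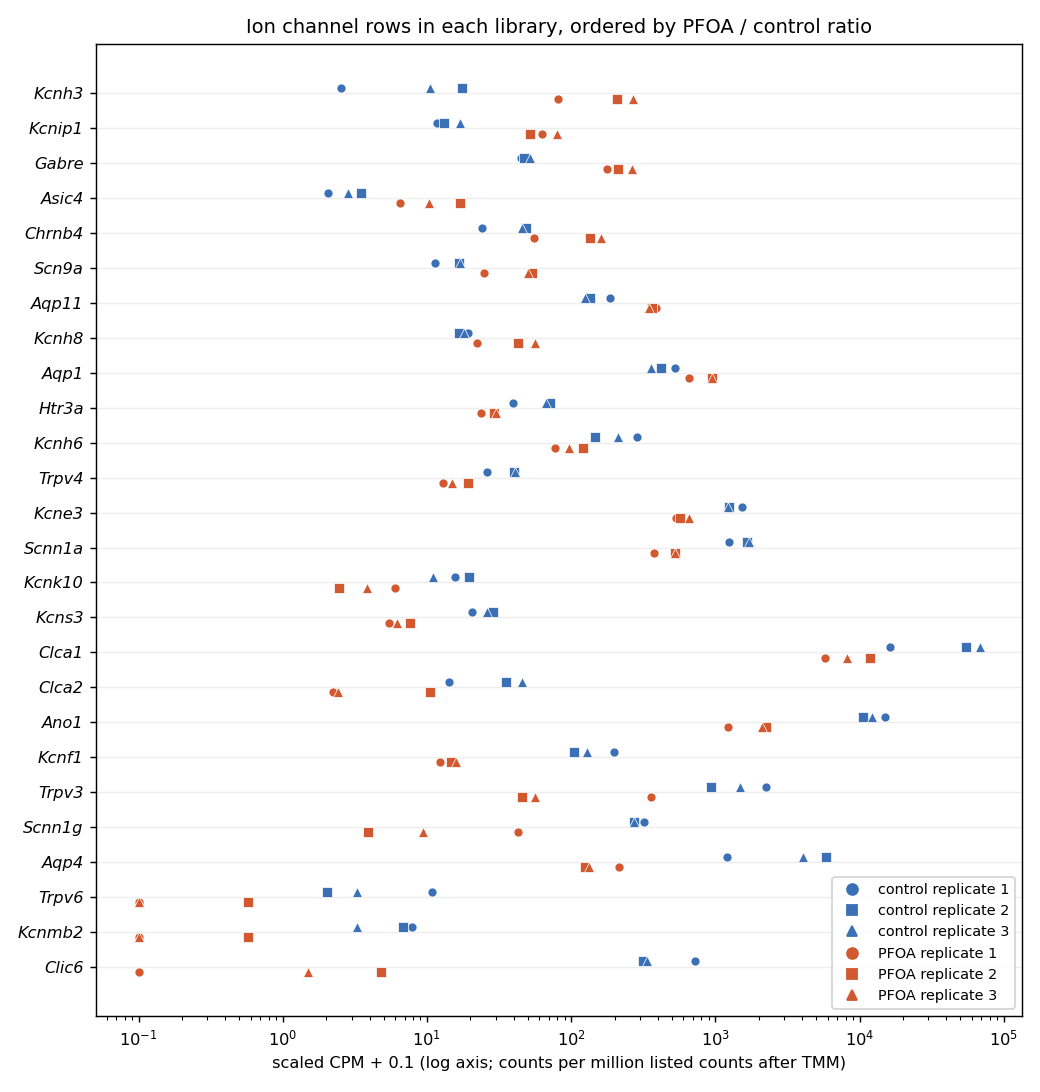
Scaled CPM (plus 0.1, log axis) of the 26 ion channel rows without overlap between the groups, in each of the 6 libraries, control in blue and PFOA in orange, ordered by the ratio of PFOA to control. Clic6, Kcnmb2 and Trpv6 at the bottom have PFOA libraries at 0, and Kcnh3 at the top is 18.9-fold higher in PFOA.

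Channel families differed in how many of their genes had a row. The epithelial sodium channel had rows for all 3 of its genes, the aquaporins for 3 of 11 and the CLCA family for 2 of 7. Potassium channel genes and their accessory subunits had 12 rows among 94 genes, of which 9 are members. Voltage-gated calcium channel genes (26), P2X receptors (7), cyclic nucleotide-gated channels (6), HCN channels (4), ryanodine receptors (3) and Piezo channels (2) had no row. Among all 285 genes of these families, 33 had a row, as the plot of families shows. The whole table held 1220 protein-coding rows. The share of all protein-coding genes with a row was not computed, so these counts have no background beside them. Differences between families were not tested, and several families are small.

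**Figure D2:**
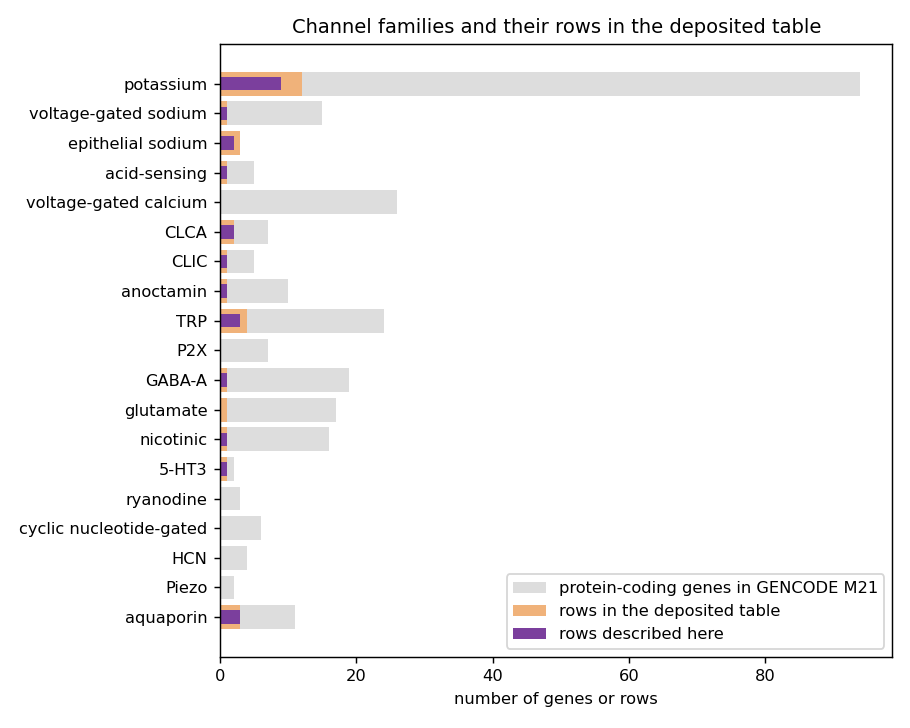
Number of protein-coding genes of channel families in GENCODE M21 (grey bars), of rows in the deposited table (light orange) and of rows described here (purple). The epithelial sodium channel is the family in which all 3 genes have a row, and 6 families have none. The plot leaves out 1 family.

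The epithelial sodium channel was lower in PFOA in both subunits among the members. This channel, which the hormone aldosterone raises, takes up sodium through the apical membrane of distal colon surface cells. Scnn1a encodes its alpha subunit (chromosome 6, 125320659 to 125344943) and had counts of 2559, 3459 and 3752 in control replicates 1, 2 and 3 against 704, 1108 and 1129 in the same order after PFOA. All PFOA libraries lay below all control libraries, with a log2 fold change of -1.70 ± 0.24 (SE over 3 libraries a group; adjusted p by edgeR = 6.96e-04), a 3.22-fold lower level. Scnn1g encodes the gamma subunit (chromosome 7, 121734479 to 121768475) and had counts of 660, 561 and 603 in the control libraries against 80, 8 and 20 after PFOA. It was 16.4-fold lower (log2 fold change -3.96 ± 0.77, SE over 3 libraries a group; adjusted p by edgeR = 0.00226). The control libraries were close together, whereas PFOA replicate 1 kept more counts than the other two. Without PFOA replicate 1 the log2 fold change of Scnn1g was -5.48.

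Per kilobase of the deposited row length, the level of Scnn1a was 303 to 411 scaled CPM in control and 91.2 to 128 in PFOA. The level of Scnn1g per kilobase was 90.6 to 108 in control and 1.26 to 14.3 in PFOA. The ratio of Scnn1a to Scnn1g was thus 2.81, 4.46 and 4.50 in control and 6.38, 100 and 41.0 in PFOA. The lowest PFOA value belonged to replicate 1 and still lay above every control value. The beta subunit gene Scnn1b, which is no member and lies 96563 bases from Scnn1g on chromosome 7, had 108 to 113 per kilobase in control and 20.9 to 32.4 in PFOA. The ratio of Scnn1a to Scnn1b was 2.81 to 3.71 in control and 3.83 to 6.03 in PFOA. These ratios were not tested, since the table is a selection made on these groups.

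Ano1, Clca1, Clca2 and Clic6, genes of chloride channel families and their relatives, were all lower in PFOA. Ano1 encodes a calcium-activated chloride channel (chromosome 7, 144588549 to 144752113) that marks the interstitial cells of Cajal, the pacemakers of the gut wall, and is also present in epithelia. Ano1 had counts of 30662, 21967 and 26918 in the control libraries against 2289, 4740 and 4550 after PFOA. Every control library was at least 4.75 times above every PFOA library on the scaled counts, and the log2 fold change was -2.76 ± 0.32 (SE over 3 libraries a group; adjusted p by edgeR = 3.62e-04), 6.66-fold lower. The Ano1 row has a deposited length of 94495 bases against 6244 bases of annotated exons, so its counts may include reads outside annotated exons. Trpv3 (17625 against 5835 bases), Aqp4 (9841 against 6233), Kcnh6 (9342 against 3549), Gabre (7758 against 4736) and Kcne3 (4284 against 1779) also have long rows, which lowers their levels per kilobase. Of 5 markers of interstitial cells of Cajal, Thbs4, which other cells make too, had the only row, with sums of 4012 to 5300 CPM in control and 15.6 to 152.4 in PFOA. The pacemaker cell markers Kit and Etv1 had no row, and the part of cell number in the Ano1 result was not tested. In bulk tissue, fewer cells of a type and less RNA per cell cannot be told apart.

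Clca1 is, despite its family name, a protein that goblet cells secrete into the mucus. Its row (chromosome 3, 145003817 to 145033164) was the most abundant of the members, taking 40.6% to 75.4% of the members' counts in a control library and 57.0% to 67.2% in a PFOA library. Clca1 had counts of 33193, 112545 and 151823 in the control libraries against 10787, 25045 and 17450 after PFOA. Control replicate 1 was far below the other control libraries but above all PFOA libraries. The log2 fold change was -2.44 ± 0.57 (SE over 3 libraries a group; adjusted p by edgeR = 0.00468), 5.42-fold lower. Clca2, a relative 37099 bases from Clca1, was sparse, with counts of 29, 73 and 101 in the control libraries against 4, 22 and 5 after PFOA. Its log2 fold change was -2.66 ± 0.70 (SE over 3 libraries a group; adjusted p by edgeR = 0.00741), or -3.74 without PFOA replicate 2. In both genes control replicate 1 was the lowest control library and PFOA replicate 2 the highest PFOA library. Goblet cell markers had rows for 5 of 8 genes, with 4 of their 7 rows higher and 3 lower. Of the 4 higher rows, 3 are separate rows of Muc2. The summed CPM, which adds up these Muc2 rows, overlapped between the groups (148106 to 204680 in control, 123116 to 306074 in PFOA). The goblet cell genes Muc2 and Spdef were higher while Fcgbp, Zg16 and Tff3 were lower. The part of goblet cells in the Clca1 result was not tested.

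Clic6 showed the largest fold change of the tested members. It encodes a chloride intracellular channel protein, of a family that exists in soluble and membrane forms (chromosome 16, 92485736 to 92541243). Clic6 had counts of 1487, 647 and 740 in the control libraries against 0, 10 and 3 after PFOA. It was 214-fold lower (log2 fold change -7.73 ± 0.84, SE over 3 libraries a group; adjusted p by edgeR = 2.72e-04), and nearly absent from all PFOA libraries. The fold change moved to -9.11 without PFOA replicate 2 and -8.33 with limma-voom, so its size is uncertain while the counts are not near each other.

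Potassium channel rows went both ways, with 6 lower and 3 higher. Kcne3 encodes the small partner subunit of the basolateral potassium channel of crypt cells, which supports chloride secretion. Kcne3 had counts of 3143, 2592 and 2692 in the control libraries against 989, 1204 and 1399 after PFOA, with little spread in either group. Its log2 fold change was -1.20 ± 0.20 (SE over 3 libraries a group; adjusted p by edgeR = 0.00138), 2.28-fold lower. Per kilobase, Kcne3 had the highest level of the potassium rows in both groups, at 313 scaled CPM in control and 136 in PFOA.

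Kcnf1 and Kcns3 encode silent subunits, which form no channel alone and modify others. Kcnf1 (chromosome 12, 17172100 to 17176888) had counts of 406, 214 and 285 in the control libraries against 23, 31 and 34 after PFOA. It was 9.98-fold lower (log2 fold change -3.32 ± 0.34, SE over 3 libraries a group; adjusted p by edgeR = 2.24e-04), and the lowest control library was 6.54 times above the highest PFOA library. Kcns3 had counts of 42, 59 and 57 in the control libraries against 10, 16 and 13 after PFOA, 3.93-fold lower (log2 fold change -1.97 ± 0.33, SE over 3 libraries a group; adjusted p by edgeR = 0.00125). Both rows were lower with no overlap between the groups. In the table, 97.1% of all listed rows do not overlap and 50% of tested rows were lower. The directions of these rows therefore say nothing of silent subunits as a class.

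Kcnk10 encodes a leak potassium channel that responds to stretch and lipids. It had counts of 32, 40 and 24 in the control libraries against 11, 5 and 8 after PFOA (log2 fold change -1.93 ± 0.43, SE over 3 libraries a group; adjusted p by edgeR = 0.00388), low in all libraries. Kcnmb2, an accessory subunit of the calcium-activated potassium channel, had counts of 16, 14 and 7 in the control libraries against 0, 1 and 0 after PFOA. The control-to-PFOA ratio was 35.9, with a 95% Clopper-Pearson interval from 6.05 to 1460 that covers counting error only, and the row was too sparse to be tested.

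The 3 members of the Kcnh family, voltage-gated channels related to the cardiac repolarising channel, split in direction. Kcnh6 had counts of 589, 301 and 466 in the control libraries against 145, 255 and 207 after PFOA, and was 2.17-fold lower (log2 fold change -1.13 ± 0.31, SE over 3 libraries a group; adjusted p by edgeR = 0.00916). Kcnh3 (chromosome 15, 99224861 to 99242817) had counts of 5, 36 and 23 in the control libraries against 152, 444 and 575 after PFOA. It was 18.9-fold higher (log2 fold change 4.20 ± 0.71, SE over 3 libraries a group; adjusted p by edgeR = 0.00135), or 3.61 on the log2 scale without control replicate 1. Kcnh3 was lowest in replicate 1 of each group and its groups did not overlap. The Kcnh3 row shares exon bases with Mcrs1 on the opposite strand, and without a stated strand setting the reads of the genes cannot be told apart. Kcnh8 had counts of 39, 34 and 40 in the control libraries against 41, 90 and 120 after PFOA. Its log2 fold change of 1.17 ± 0.39 (SE over 3 libraries a group; adjusted p by edgeR = 0.0193) rested on PFOA replicates 2 and 3, with PFOA replicate 1 just above the control libraries. The call of Kcnh8 was lost without any single control library (edgeR adjusted p = 0.06, 0.0631 and 0.0758 without control replicates 1, 2 and 3), without PFOA replicate 3 (edgeR adjusted p = 0.0713) and with library totals alone (edgeR adjusted p = 0.0519).

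Kcnip1, a calcium sensor protein that binds fast-inactivating potassium channels, had counts of 24, 27 and 37 in the control libraries against 116, 109 and 171 after PFOA. It was 4.64-fold higher (log2 fold change 2.21 ± 0.32, SE over 3 libraries a group; adjusted p by edgeR = 7.70e-04), with tight groups that lay 3.05 times apart at their nearest libraries. Per kilobase, the level of Kcnf1 was 30.1 scaled CPM in control and 2.99 in PFOA, and that of Kcnh3 was 1.75 in control and 32.3 in PFOA. Both rows have the deposited length that the annotated exons give.

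The 3 TRPV rows, cation channels that pass calcium, were all lower. Trpv3, a warmth-gated channel best known from skin (chromosome 11, 73267388 to 73300363), had counts of 4638, 1939 and 3249 in the control libraries against 666, 97 and 120 after PFOA. It was 10.8-fold lower (log2 fold change -3.35 ± 0.83, SE over 3 libraries a group; adjusted p by edgeR = 0.00599). PFOA replicate 1 was 7.02 times the mean of PFOA replicates 2 and 3, and without it the log2 fold change was -4.97. Squamous markers, Krt13 and Dsg3 being those with a row, summed to 1.9 to 2.8 CPM in control and 3.1 to 12.4 in PFOA. These sparse rows went opposite ways. Krt13 had counts of 5, 3 and 3 in the control libraries against 0 in each PFOA library. Dsg3 had 0, 2 and 1 in the control libraries against 27, 7 and 7 after PFOA. The part of squamous cells in the Trpv3 result was not tested. Trpv1, the capsaicin receptor gene 6149 bases away and no member, had 40, 31 and 30 counts in control and 3 in every PFOA library.

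Trpv4, which opens on swelling and stretch, had counts of 53, 83 and 90 in the control libraries against 24, 41 and 32 after PFOA. Its log2 fold change was -1.18 ± 0.34 (SE over 3 libraries a group; adjusted p by edgeR = 0.0104), the smallest of the TRPV rows. Trpv6, the calcium uptake channel of absorptive epithelia, was sparse, with counts of 22, 4 and 7 in the control libraries against 0, 1 and 0 after PFOA. The control-to-PFOA ratio of Trpv6 was 32.0 with a 95% Clopper-Pearson interval from 5.36 to 1300 (counting error only), and control replicate 1 held most of its counts.

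Aquaporins changed in opposite directions. Aqp4 encodes a water channel of the basolateral membrane in epithelia and of glia (chromosome 18, 15389496 to 15410982). Aqp4 had counts of 2468, 12181 and 8861 in the control libraries against 401, 266 and 286 after PFOA. It was 23.9-fold lower (log2 fold change -4.55 ± 0.61, SE over 3 libraries a group; adjusted p by edgeR = 5.75e-04), and the lowest control library, replicate 1, was still 5.58 times above the highest PFOA library. A listed antisense row, Gm50048, overlaps Aqp4 and had counts of 3, 38 and 15 in the control libraries against 2, 1 and 0 after PFOA.

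Aqp1, the water channel of small vessels and red cells, had counts of 1074, 872 and 795 in the control libraries against 1233, 2019 and 2043 after PFOA. Its log2 fold change was 0.97 ± 0.24 (SE over 3 libraries a group; adjusted p by edgeR = 0.0062), and the call was lost without control replicate 3 (log2 fold change 0.74; edgeR adjusted p = 0.0516). Aqp11, an intracellular aquaporin, had counts of 383, 281 and 273 in the control libraries against 724, 767 and 741 after PFOA. It was 2.46-fold higher (log2 fold change 1.29 ± 0.24, SE over 3 libraries a group; adjusted p by edgeR = 0.00172), with PFOA libraries close together. Per kilobase, the aquaporin levels in control were 377 scaled CPM for Aqp4, 166 for Aqp1 and 15.8 for Aqp11. In PFOA they were 325 for Aqp1, 38.8 for Aqp11 and 16.1 for Aqp4, so that Aqp4 went from first to last.

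Among the remaining members, Chrnb4, Gabre, Scn9a and Asic4 were higher in PFOA and Htr3a was lower. Chrnb4, a nicotinic acetylcholine receptor subunit of autonomic ganglia (chromosome 9, 55028154 to 55048779), had counts of 49, 100 and 100 in the control libraries against 103, 286 and 345 after PFOA. Its log2 fold change was 1.58 ± 0.46 (SE over 3 libraries a group; adjusted p by edgeR = 0.0114), lost without control replicate 1 (log2 fold change 1.19; edgeR adjusted p = 0.0523). Gabre, the epsilon subunit of the GABA-A receptor (chromosome X, 72255999 to 72274803), had counts of 92, 97 and 114 in the control libraries against 332, 449 and 568 after PFOA. It was 4.59-fold higher (log2 fold change 2.19 ± 0.25, SE over 3 libraries a group; adjusted p by edgeR = 3.24e-04), and its groups lay 3.44 times apart at their nearest libraries.

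Scn9a, a voltage-gated sodium channel of peripheral neurons, had counts of 23, 34 and 37 in the control libraries against 46, 114 and 107 after PFOA (log2 fold change 1.53 ± 0.39, SE over 3 libraries a group; adjusted p by edgeR = 0.00685). Asic4, of the acid-sensing channel family, had counts of 4, 7 and 6 in the control libraries against 12, 36 and 22 after PFOA (log2 fold change 2.04 ± 0.48, SE over 3 libraries a group; adjusted p by edgeR = 0.00463). Both were low in all libraries and lowest in replicate 1 of each group. Htr3a, the serotonin-gated channel subunit found on enteric neurons, went the other way, with counts of 81, 148 and 148 in the control libraries against 44, 62 and 64 after PFOA, 2.15-fold lower. Of 13 enteric neuron markers none had a row, so that this marker list gives no measure of neuron content. Of 7 enteric glia markers only Gfap had one, with 16.5 to 21.5 CPM in control and 46.8 to 60.4 in PFOA. Of 8 smooth muscle markers only Cnn1 had one, at 2641 to 6859 CPM in control and 1265 to 1978 in PFOA. The part of the cell types in these results was not tested. Scn9a, Asic4 and Kcne3 also share exon bases with an annotated gene on the opposite strand.

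**Figure D3:**
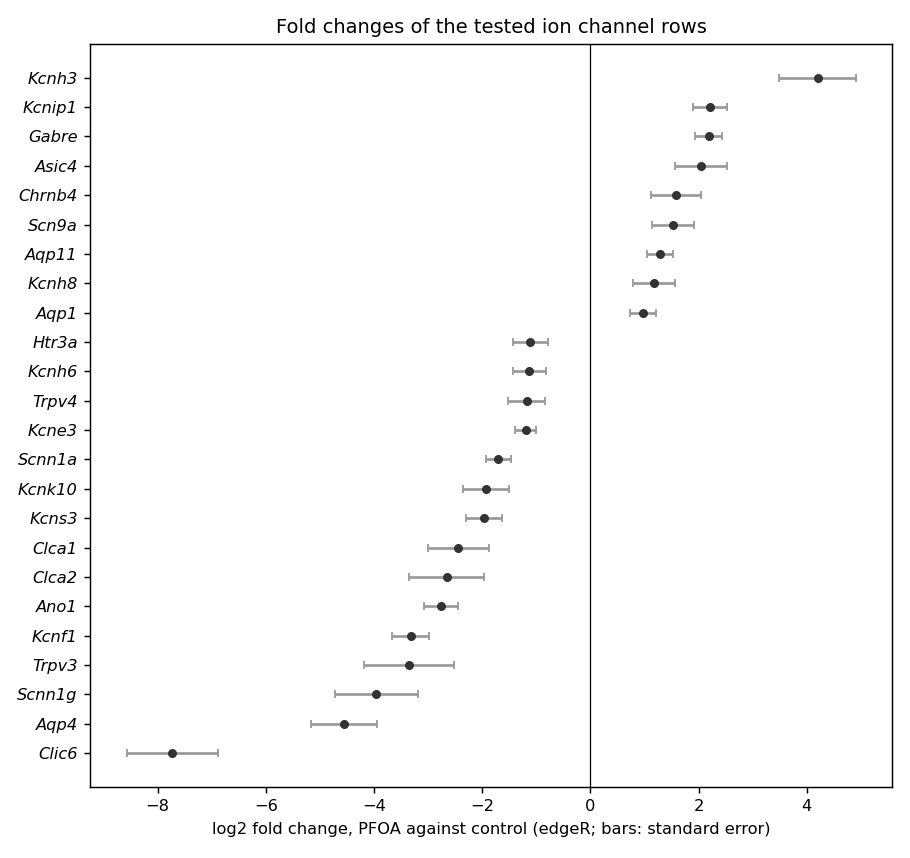
Log2 fold change of PFOA against control for the 24 tested ion channel rows, with bars for the standard error (edgeR, n = 3 per group). Values run from -7.73 for Clic6 to 4.20 for Kcnh3, with no row near 0 because the table lists rows selected for a difference.

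PFOA replicate 1 was the lowest library of its group in most of the tested channel rows. Among the 9 higher rows, PFOA replicate 1 was the lowest PFOA library in 7 (77.8%, beside 36.6% of the 804 higher rows of the table). The exceptions were Kcnip1 and Aqp11. PFOA replicate 1 was the highest PFOA library in 1 of the 9 (11.1%, beside 49.8% of the table's higher rows). Among the 15 lower rows it was the lowest in 11 (73.3%, beside 46.5% of the 804 lower rows). It was the highest in the other 4, Aqp4, Scnn1g, Trpv3 and Kcnk10 (26.7%, beside 35.1%). Among the higher rows, PFOA replicate 1 was at 0.342 of the mean of PFOA replicates 2 and 3 for Kcnh3. The same ratio was 0.373 for Chrnb4, 0.447 for Kcnh8, 0.473 for Asic4 and 0.477 for Scn9a. Control replicate 1 was the lowest control library in 6 of the 9 higher rows (66.7%, beside 52.0% of the table's higher rows). In the 15 lower rows it was the lowest in 7 and the highest in 7. These are 46.7% each, beside 34.7% and 49.8% of the table's lower rows. These shares are descriptions, and the rows of a library are not independent. Leaving out PFOA replicate 1 ended no call among the 24 rows.

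**Figure D4:**
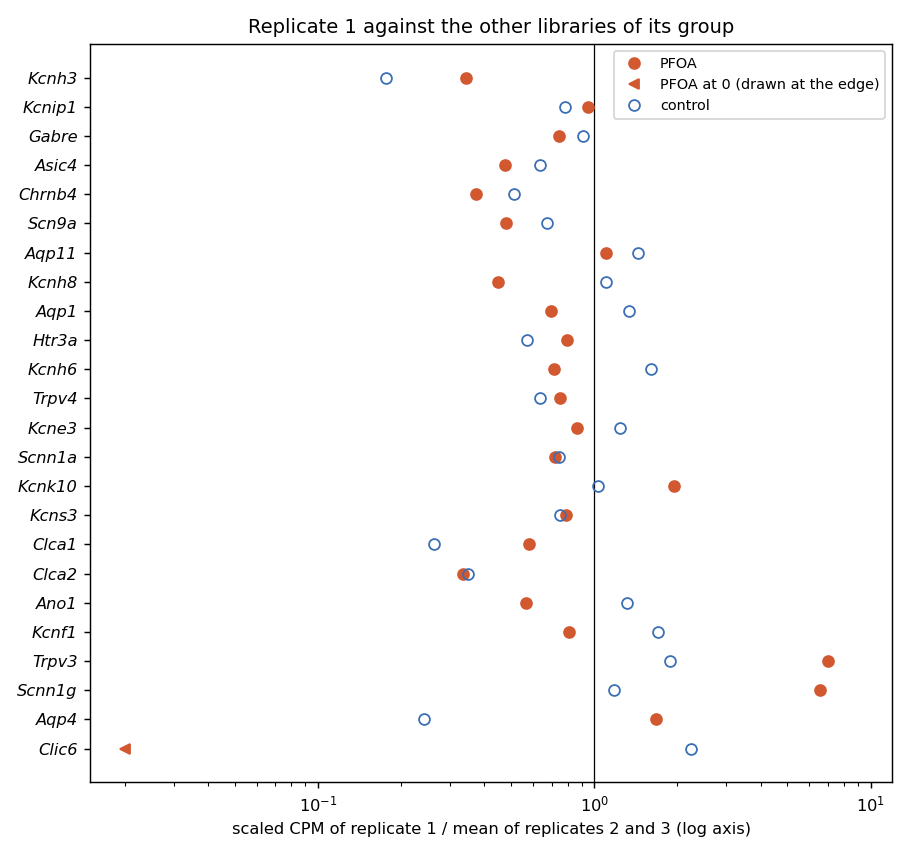
Scaled count of replicate 1 divided by the mean of replicates 2 and 3 (log axis) for each tested ion channel row, PFOA in filled orange and control in open blue. Scnn1g and Trpv3 lie far to the right in PFOA (6.55 and 7.02), Clic6 is at 0 in PFOA replicate 1, and most other PFOA points lie left of 1.

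Clca1 and Ano1 weighed on the total. All members together took 4.62%, 7.93% and 9.34% of the listed counts in the control libraries against 0.868%, 1.74% and 1.32% after PFOA. Without Clca1 and Ano1 the other 25 rows took 1.01% to 1.19% in control and 0.269% to 0.354% in PFOA. These rows were selected for a difference between the groups, so this gap is no separate evidence. Since other rows of the table also set these totals, the shares are relative to listed genes only.

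Other ion transport genes were read from a list of 118 channels, pumps, exchangers and regulators, nearly all outside the name prefixes. The list holds 17 genes with a row, 2 of them members, and all of the other 15 passed edgeR's test, 10 lower and 5 higher. So did every one of the 1608 rows tested, of which 50% were lower. Fxyd4, a hormone-induced regulator of the sodium pump, had counts of 282, 191 and 207 in the control libraries against 0 in each PFOA library. It was at least 220-fold lower against a floor of 3 counts over the PFOA group. Best2, an anion channel of colon goblet cells, and Atp12a, the colonic proton-potassium pump, were 7.97-fold and 118-fold lower, and Scnn1b was 4.26-fold lower. Among the higher genes, Slc8a1, a sodium-calcium exchanger, was 3.03-fold, Dpp10, a partner of potassium channels, 2.54-fold, Tmc5, of a family with mechanosensitive channels, 2.64-fold and Ttyh2, of a family linked to chloride channels, 2.04-fold higher. Enteroendocrine markers, 4 of 10 with a row (1 higher and 3 lower), had summed levels of 2886 to 3795 CPM in control and 421.9 to 522.9 in PFOA.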

How the data were processed

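Colon RNA from 3 control and 3 PFOA libraries was sequenced with a SMARTER kit, per the labels' protocols. The authors deposited raw read counts per gene row, for which HISAT2, HTSeq and mm10 are listed in the submitters' processing notes, without versions or roles. The deposited row length in bases ("other" unit) was used for levels per kilobase. It equals the exonic length of GENCODE M21 in 19 of 27 members. For strand, multi-mapping reads, the assembly of loci and the choice of the 2033 rows, the procedure is not given in the sources used here. Columns were matched through the sample descriptions.

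The main test was the quasi-likelihood test of edgeR 4.0.16 under R 4.3.3, on 1608 rows kept by filterByExpr and with TMM scaling (glmQLFit, glmQLFTest), two-sided, Benjamini-Hochberg over all tested rows, adjusted p 0.05. The standard error is the absolute log2 fold change divided by the square root of F. Plain folds are ratios of summed counts over TMM-scaled totals. Marker sums are CPM of listed counts without TMM. On simulated data for 1608 rows with 200 changed, the test recovered 16.8% of the 2-fold changes and 80% of the 4-fold changes. It called 5 rows that had none. Most simulated rows were unchanged, whereas every tested row of the data passed. These rates therefore do not carry over to the listed rows. Alternatives were RLE scaling, library totals, TMM without the 20 most abundant rows, no filter, 1 CPM in 3 libraries, DESeq2 1.42.0, limma-voom (limma 3.58.1), a replicate block and each library left out. No replicate pair agreed within sampling noise (smallest chi-square per degree of freedom 22.4).

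Members and lists were chosen with earlier results of these data known. Every member is named except 1, which is not reported here. Full values follow a rule: called, no overlap, at least 1 CPM on average, up to the 14 largest changes in each direction; from other ion transport genes, up to 4 with the smallest p in each direction. Marker lists are given by counts and sums, with examples named; goblet cell examples beyond the 2 with the smallest p were added after their values were seen.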

Additional observations from a re-analysis of the deposited data

How the results depend on the processing

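Of the 24 tested channel rows, none changed direction under the 14 alternatives run. The number called was 23 to 27, with 7 to 10 higher and 15 to 17 lower. The largest numbers came from settings that test more rows. All 27 passed with no filter, with 1 CPM in 3 libraries and with DESeq2. With no filter, the log2 fold changes were -4.81 for Kcnmb2 (edgeR adjusted p = 0.00218) and -4.64 for Trpv6 (0.00616). Leaving out 1 library at a time gave 23 to 26 called rows, and 1531 to 1663 over all listed rows. Calls were lost for Kcnh8, Chrnb4 and Aqp1, as given beside those genes. Library totals alone moved the log2 fold changes of all rows by a median of -0.2, DESeq2 by -0.18. By over 1.5 times, limma-voom also moved Scnn1g (to -4.65) and Trpv3 (to -3.94). The cause was not tested.

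Replicate numbers are shared by the groups, but same-numbered libraries deviated together with correlations of 0.114, -0.031 and 0.102, and control replicates 2 and 3 each correlated best with another number, so the numbers were not taken as pairs. Under the replicate block, edgeR called 24 channel rows, 9 higher and 15 lower, and 1579 of all rows. The rows are selected, so stability here speaks for the listed counts only. Sparse members (5 with under 50 counts in every library) carry the widest counting error.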
